A study of Mus musculus with 12 samples.

Results

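The cathepsins are the proteases of the lysosome and of related endosomal compartments. The 10 genes described here are Ctsa, Ctsb, Ctsc, Ctsd, Ctse, Ctsf, Ctsh, Ctsl, Ctss and Ctsz, chosen by symbol from the 47632 genes of each expression table. All 10 were found in the tables of the 3 sampling days, each under 1 gene identifier. RNA was sequenced from epithelial cells that had been released from the colon of C57/BL6 mice with EDTA, during an experiment with dextran sulfate sodium (DSS), a chemical that injures the colonic epithelium. The control animals, labelled WT, were Tfeb flox/flox littermates that carry the floxed alleles and no Cre. The knockout animals, labelled KO and called Tfeb dIEC here, carry the same alleles and a Cre driven by the villin promoter, which is active in the intestinal epithelium and not in the other cells of the colon. Each of the 6 groups had 2 animals, of 10 and 12 weeks of age on day 0, 12 weeks on day 4 and 10 weeks on day 11, and the labels give 2.5% DSS for all of them, day 0 included. The study names a slightly different concentration in its methods and describes day 0 as untreated and day 11 as following a recovery period. Age therefore differed between the days but not between the genotypes of a day. The comparison asks how epithelial loss of Tfeb, a transcription factor, relates to the expression of these genes before, during and after the injury.

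Cathepsins are made as inactive precursors, carried to the lysosome mostly by mannose 6-phosphate receptors, and activated there by removal of a propeptide. They differ in how they cut. Ctsa is a serine carboxypeptidase that also protects other lysosomal enzymes, Ctsd and Ctse are aspartic proteases, and Ctsb, Ctsc, Ctsf, Ctsh, Ctsl, Ctss and Ctsz are cysteine proteases of the papain family. Transcription of many lysosomal genes is driven by Tfeb and its relatives Tfe3, Mitf and Tfec, which bind an E-box motif that is common in lysosomal promoters.

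The E-box core, CACGTG, which reads the same on both strands, was looked for in the RefSeq promoter windows (250 bases before to 50 bases after a start site, build GRCm38.p6). Windows were found for 7 of the 10 genes, with 2 start sites for Ctsa, and none was used for Ctsb, Ctse or Ctsh. The core stood in 4 of the 8 windows, against 7.15% of the 32851 windows of all genes, expressed here or not. Of the genes with a window that passed the day 4 expression filter given below, 731 held the core and 5200 did not. Its longer palindrome TCACGTGA stood in 2 of the 8, against 0.974% of all windows. The 30-base stretches around the cores are shown because they are the places in these promoters where the motif of the deleted factor was matched; capitals mark the core, and each is written on the strand of its gene.
Ctsa, second start site, chr2:164833757-164833786, + strand: ctgtCACGTGatgcagatgctCACGTGacc
Ctsd, nearer match, chr7:142387908-142387937, - strand: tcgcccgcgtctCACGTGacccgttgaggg
Ctsd, farther match, chr7:142388048-142388077, - strand: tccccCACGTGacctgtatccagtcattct
Ctsf, chr19:4855074-4855103, + strand: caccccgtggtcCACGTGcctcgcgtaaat
Ctsl, chr13:64370739-64370768, - strand: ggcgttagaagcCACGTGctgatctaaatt
Ctsa held 2 copies around its second start site, beginning 12 bases before it and at its base 6, both in the longer palindrome and both inside an annotated Ctsa exon. Ctsd held 2 copies, the nearer one 98 bases before the start in the longer palindrome and inside a Ctsd exon of the GENCODE annotation, and the farther one 245 bases before it, outside any annotated gene. The Ctsf copy began 79 bases before the start, outside any annotated gene. The Ctsl copy began 236 bases before the RefSeq start, inside a Ctsl intron. The first Ctsa window and those of Ctsc, Ctss and Ctsz held no match. The stretch of Ctsc from 130 bases before to 20 bases after its start is shown because this gene had no match and, with a pseudocount of 1 FPKM, the largest log2 difference of the 10 on days 4 and 11.
Ctsc, chr7:88277955-88278104, + strand: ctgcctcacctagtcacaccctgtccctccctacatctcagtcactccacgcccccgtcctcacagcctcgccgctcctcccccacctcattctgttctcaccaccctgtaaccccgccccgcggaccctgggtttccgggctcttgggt
A match is a run of letters and not a measured binding site.

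**Figure D1:**
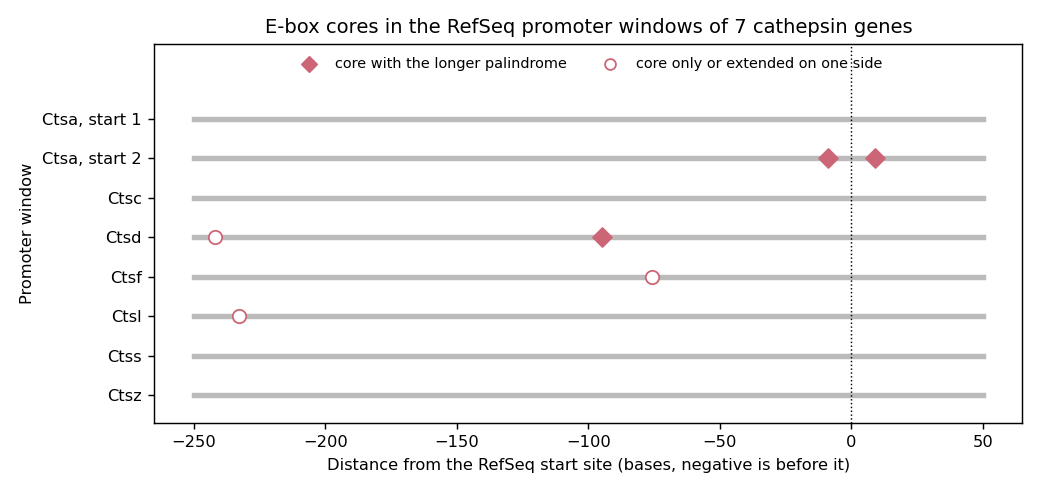
Matches of the E-box core in the 8 promoter windows of 7 cathepsin genes, by distance in bases from the RefSeq start site (dotted line, negative is before it); filled diamonds mark a core within the longer palindrome and open circles the others. Only the windows of Ctsa (second start) and Ctsd hold the longer palindrome, and 4 of the 8 windows hold no core.

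Each group has 1 expression value per gene, in FPKM (fragments counted per length of transcript and per depth of the library), which the authors pooled from both animals. The values used here carry no spread between animals, so no difference was tested here, and genotype cannot be told apart from differences between the 2 animals of a group and the other 2. Each of the 3 tables compares the genotypes of 1 day, and the study describes no normalization across days. Levels across days are set side by side with that limit. The day 4 and day 11 tables share values: of the genes above 0 on both days, 1679 of 11746 had the identical FPKM in Tfeb flox/flox and 1310 of 12826 in Tfeb dIEC, while no gene did between day 0 and day 4. None of the 10 cathepsins was identical, but the day 11 level was 0.889 to 1.02 times the day 4 level in Tfeb flox/flox and 0.921 to 1.03 times in Tfeb dIEC over the 9 genes at 1 FPKM or more. For comparison, the day 4 level was 0.214 to 1.10 times that of day 0 in Tfeb flox/flox and 0.478 to 2.67 times in Tfeb dIEC. Whether libraries were shared between these days was not tested, so the day 11 values are given beside those of day 4 and not as a repeat of them. Read depth is not known from these files, and no counting interval is given.

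Tfeb, the targeted gene, was low in every group. On day 0 it stood at 0.901 FPKM in Tfeb flox/flox against 0.185 in Tfeb dIEC. On days 4 and 11 it stood at 1.08 and 1.18 FPKM in Tfeb flox/flox and was listed at 0 in Tfeb dIEC. The direction matches the labels on each day. Of its relatives, Tfe3 was measured at 4.32 FPKM in Tfeb flox/flox and 1.90 in Tfeb dIEC on day 0, then at 1.56 and 3.61 on day 4 and at 2.09 and 2.81 on day 11. Mitf and Tfec were listed at 0 in all 6 groups.

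On day 0 every cathepsin stood within 2-fold between the genotypes. Ctsd was the most abundant, at 73.8 FPKM in Tfeb flox/flox and 87.1 in Tfeb dIEC, and Ctss came next in both. A difference was called here where the levels stood at least 2-fold apart on the log2(FPKM + 1) scale, among genes with at least 1 FPKM in either genotype. None of the 9 cathepsins that passed this filter was higher on day 0 by that measure, where 13.5% of 9993 genes were, and none was lower, where 16.1% of all genes were. The 10 levels added up to 289 FPKM in Tfeb flox/flox and 312 in Tfeb dIEC. The median log2 difference (Tfeb dIEC over Tfeb flox/flox, pseudocount 1) was 0.24 for the cathepsins and 0.06 for all genes.

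On day 4 of DSS 5 of the 9 cathepsins, namely Ctsa, Ctsb, Ctsc, Ctsd and Ctss, were at least 2-fold higher in Tfeb dIEC, against 25.6% of 9371 genes. None was lower by that measure, against 26.1% of all genes. On day 11 the same 5 of 9 were higher, against 26.1% of 9365 genes, and none was lower, against 25.7%. The median log2 difference of the cathepsins was 1.26 on day 4 and 1.30 on day 11, beside medians of 0.06 and 0.08 over all genes. The 10 levels added up to 191 FPKM in Tfeb flox/flox and 488 in Tfeb dIEC on day 4, a ratio of 2.55, and to 188 and 475 on day 11. Of the 5 genes, 1 is the serine protease, 1 is an aspartic protease and 3 are cysteine proteases.

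**Figure D2:**
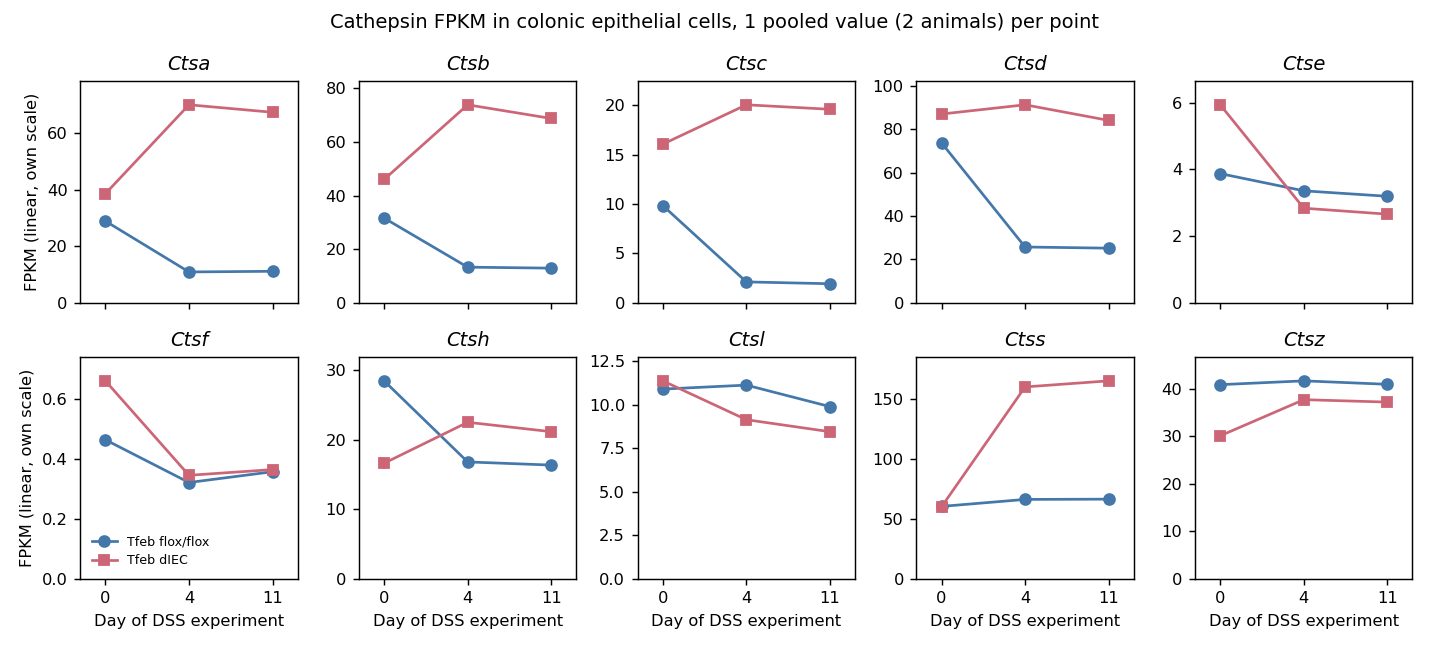
FPKM (linear axis from 0, own scale for each gene) of the 10 cathepsins by day, in Tfeb flox/flox (blue circles) and Tfeb dIEC (red squares); each point is 1 value pooled from 2 animals and the lines only join the days. The genotypes lie apart on days 4 and 11 for Ctsa, Ctsb, Ctsc, Ctsd and Ctss, and Ctsz, Ctsl and Ctse stay within 2-fold.

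Ctsa, the carboxypeptidase that holds beta-galactosidase and neuraminidase in a stable complex, was at 28.9 FPKM in Tfeb flox/flox and 38.5 in Tfeb dIEC on day 0. On day 4 it stood at 10.9 and 70.0 FPKM, and on day 11 at 11.1 and 67.3. The control level was 2.65-fold lower on day 4 than on day 0, whereas the knockout level was 1.82-fold higher. Among the genes above 0 in the same group, Ctsa was at percentile 89.4 in Tfeb flox/flox on day 0 and at 80.2 on day 4, and at 92.0 and 94.3 in Tfeb dIEC. A rank within a group does not depend on a scaling factor between groups. The log2 difference of 0.41 on day 0 compares with 2.58 on day 4 and 2.50 on day 11.

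Ctsb, an abundant endopeptidase and dipeptidase of lysosomes, showed the same course. On day 0 the control stood at 31.6 FPKM and the knockout at 46.0. The values were 13.3 and 73.9 on day 4, and 12.9 and 68.8 on day 11. The control was lower and the knockout higher on days 4 and 11 than on day 0. Its percentile was 89.9 on day 0 and 82.2 on day 4 in Tfeb flox/flox, and 92.9 and 94.5 in Tfeb dIEC.

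Ctsc, the dipeptidyl peptidase that activates serine proteases of immune granules, had the largest ratio of the family on days 4 and 11. With a pseudocount of 5 FPKM, however, its day 4 log2 difference of 1.82 was below those of Ctsa (2.24) and Ctsb (2.11). On day 11 its 1.83 was likewise below those of Ctsa (2.17) and Ctsb (2.04). Control and knockout stood at 9.85 and 16.1 FPKM on day 0, at 2.11 and 20.1 on day 4, and 1.92 and 19.6 on day 11. The 9.51-fold ratio of day 4 goes with a low control: as deposited, the control level was 4.67-fold lower than on day 0, and the knockout level 1.25-fold higher. In Tfeb flox/flox Ctsc was at percentile 79.5 on day 0 and 51.7 on day 4, the largest shift in rank among the 10 genes in that genotype.

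Ctsd, the main aspartic protease of lysosomes, was at 73.8 FPKM in Tfeb flox/flox and 87.1 in Tfeb dIEC on day 0. It stood at 25.7 and 91.4 FPKM on day 4 and at 25.2 and 84.2 on day 11. Here the knockout level of day 4 was 1.05 times that of day 0, and the control level was 2.87-fold lower. The 3.55-fold ratio of day 4 goes with the lower control value.

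Ctss, which cuts the invariant chain of MHC class II molecules, differed between days 0 and 4 in the knockout more than in the control. Control and knockout stood level on day 0, at 60.3 and 59.9 FPKM, and were at 66.1 and 160 on day 4 and 66.3 and 165 on day 11. The control level on day 4 was 1.10 times that of day 0, while the knockout level was 2.67 times. Ctss was the most abundant cathepsin of all 4 groups on days 4 and 11. The log2 difference, -0.01 on day 0, was 1.26 on day 4, which placed Ctss at percentile 81.4 of all genes of that day by log2 difference, while Ctsc was at 97.3, Ctsa at 96.5, Ctsb at 95.5 and Ctsd at 90.2.

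The other 5 genes stood within 2-fold on every day. Ctsh, an aminopeptidase, was lower in Tfeb dIEC on day 0 and higher on days 4 and 11: it was at 28.5 FPKM in Tfeb flox/flox and 16.6 in Tfeb dIEC on day 0, at 16.8 and 22.5 on day 4, and at 16.4 and 21.2 on day 11. Ctsz, a carboxypeptidase, was at 40.9 and 30.1 FPKM on day 0, 41.7 and 37.7 on day 4, and 40.9 and 37.2 on day 11. As deposited, its control level on day 4 was 1.02 times that of day 0. The FPKM of all genes in Tfeb flox/flox added up to 975316 on day 0 and 1.46e+06 on day 4. Ctsl, an endopeptidase of lysosomes, was at 10.9 and 11.4 FPKM on day 0, 11.1 and 9.14 on day 4, and 9.89 and 8.45 on day 11. Its log2 difference was 0.06, -0.26 and -0.20. Ctse, an aspartic protease found in endosomes of epithelial and immune cells more than in lysosomes, was at 3.87 and 5.94 FPKM on day 0, 3.36 and 2.84 on day 4, and 3.19 and 2.66 on day 11. Ctsf, a cysteine protease, was under 1 FPKM in all 6 groups, between 0.321 and 0.661, and was left out of the counts.

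**Figure D3:**
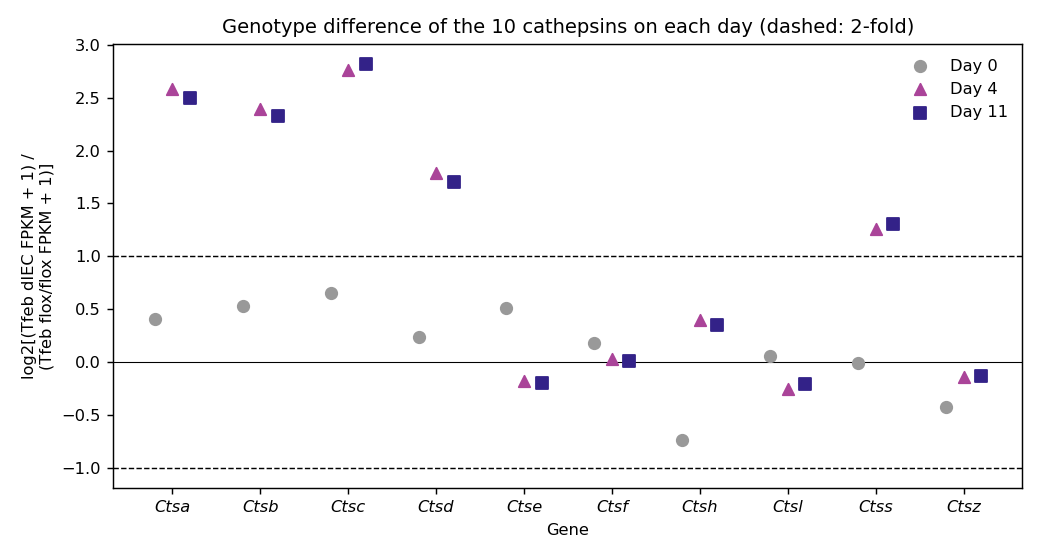
Log2 ratio of FPKM + 1 in Tfeb dIEC over Tfeb flox/flox for each of the 10 cathepsins on day 0 (grey circles), day 4 (triangles) and day 11 (squares), 1 pooled value per group and no error; dashed lines mark 2-fold. All day 0 points lie within 2-fold, and on days 4 and 11 Ctsa, Ctsb, Ctsc, Ctsd and Ctss lie above it, with Ctsc highest at 2.76 and 2.82.

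The order of the levels also differed between the groups. FPKM is given per length, but the genotype difference still moved with transcript length over all genes, as given below. The orders are not adjusted for that. On day 0 the order in Tfeb flox/flox was Ctsd, Ctss, Ctsz, Ctsb, Ctsa, Ctsh, Ctsl, Ctsc, Ctse and Ctsf. In Tfeb dIEC that day Ctsb and Ctsa stood above Ctsz, and Ctsc above Ctsl, with the other places the same. On day 4 the order in Tfeb flox/flox was Ctss, Ctsz, Ctsd, Ctsh, Ctsb, Ctsl, Ctsa, Ctse, Ctsc and Ctsf, while in Tfeb dIEC it was Ctss, Ctsd, Ctsb, Ctsa, Ctsz, Ctsh, Ctsc, Ctsl, Ctse and Ctsf. With no value per animal it cannot be said which neighbours in an order differ beyond their spread.

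Shares within the family do not depend on a common scaling factor. They are not adjusted for transcript length, with which the genotype difference moved over all genes, as given below. On day 4 the median log2 difference of the genes nearest in length was 0.63 for Ctsa, 0.54 for Ctsb and 0.01 for Ctsz. The part of this trend in the shares was not tested. Ctsa made up 5.68% of the summed FPKM of the 10 genes in Tfeb flox/flox on day 4 and 14.3% in Tfeb dIEC. The share of Ctsb was 6.94% and 15.2%, that of Ctsc 1.10% and 4.12%, and that of Ctsd 13.4% and 18.7%. Ctss took a similar share in both, 34.5% and 32.8%, and Ctsz a larger one in the control, 21.8% against 7.73%. On day 0 the genotypes were closer, with 9.99% and 12.3% for Ctsa and 14.1% and 9.63% for Ctsz.

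The scale of the tables sets how far the absolute differences can be read. The FPKM of all genes added up to 975316 in Tfeb flox/flox and 973878 in Tfeb dIEC on day 0, and to a total 1.79-fold higher in Tfeb flox/flox than in Tfeb dIEC on day 4 and 1.78-fold higher on day 11. When each group was divided by its own sum, 41.6% of all genes were higher and 16.1% lower on day 4, the median of all genes stood at 0.68 on the log2 scale, and 6 cathepsins were higher, Ctsh (log2 difference 1.20) being added. Ctse, Ctsl and Ctsz, which were lower in Tfeb dIEC in the tables as deposited, had log2 differences of 0.45, 0.50 and 0.68 on this scale. No direction is therefore given for these 3 genes.

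The difference between genotypes also moved with transcript length over all genes. On day 4 the median log2 difference was -1.89 in the shortest of 10 equal groups of genes by length and 0.65 in the eighth. At the lengths of the cathepsins the running median of all genes was between 0.01 for Ctsz and 0.67 for Ctsc and Ctsl. With that median subtracted, the day 4 log2 difference was 2.09 for Ctsc, 1.95 for Ctsa, 1.86 for Ctsb, 1.25 for Ctsd and 1.24 for Ctss, so these 5 genes stayed past 2-fold, where 20.4% of all genes then were. On day 0 the cathepsin median was 0.01 with the length trend subtracted, instead of 0.24. On day 4 Ctsl, at -0.92, and Ctse, at -0.68, then stood below the genes of their length. The lengths are those of the GENCODE M21 annotation, whose Ctsl model is longer than the locus in the tables, so the Ctsl value is the least certain.

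**Figure D4:**
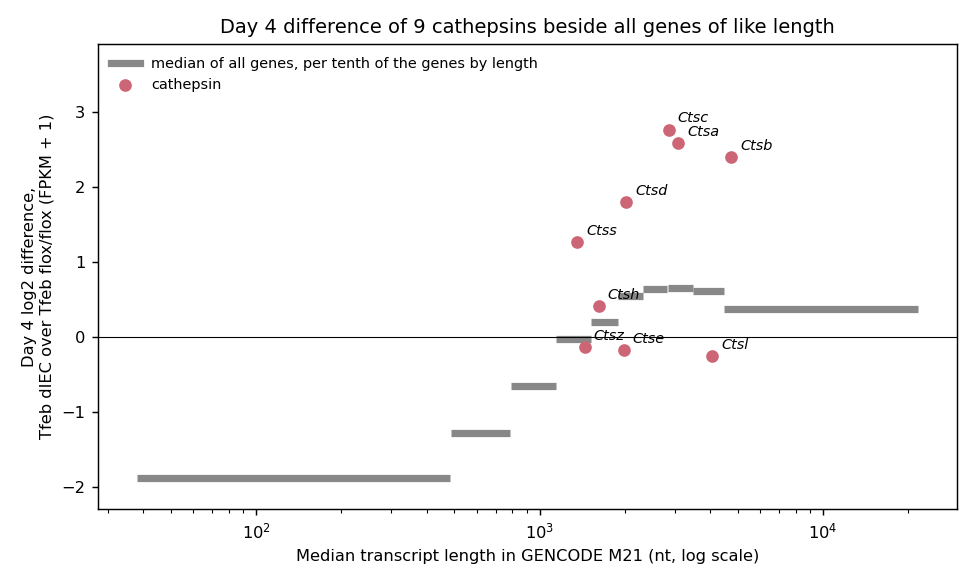
Day 4 log2 ratio (FPKM + 1, Tfeb dIEC over Tfeb flox/flox) of the 9 cathepsins at 1 FPKM or more (red points) against median transcript length in nucleotides on a log axis, with grey bars for the median of all genes in each of 10 groups by length. Ctsa, Ctsb, Ctsc, Ctsd and Ctss lie above the bar of their length by more than 2-fold, Ctsh above its bar by less, and Ctsl, Ctse and Ctsz below theirs.

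Several cathepsin genes overlap others, and the counting is not stated to use strand. Of the Ctsa exon bases 22.3% also lie in exons of Neurl2 or Pltp. Neurl2 was listed at 0 in all groups, and Pltp was at 2.65 FPKM in Tfeb flox/flox and 0.451 in Tfeb dIEC on day 4, the opposite direction to Ctsa. Of the Ctsb exon bases 16.3% lie in exons of Fdft1, which was at 2.69 and 10.8 FPKM on day 4, the same direction as Ctsb at a lower level. Ctsd shares 31.5% of its exon bases with Gm49369, a gene not found in the tables under that name, and 67.6% of the 50-base stretches of its transcripts, read along the transcribed strand only, occur in the transcripts of no other gene. For Ctsb, Ctse, Ctsf, Ctsh, Ctss and Ctsz all such stretches occur in no other gene on that strand, for Ctsa and Ctsc 99.7% and 99.6% do, and for Ctsl 93.5%. Ctsl shares 28.2% of its exon bases with Gm47123 and Gm49230, which were also not found in the tables under those names. Ctsc, Ctse, Ctsf, Ctsh and Ctss share none. The Ctsa, Ctsb, Ctsd and Ctsl levels are less certain for this reason, and the part of overlapping genes in them was not tested.

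The other cathepsin genes of the mouse, 13 of which were listed, were mostly at 0. Of these, 11 were listed at 0 in all 6 groups, among them Ctsk of osteoclasts and Ctsg of neutrophils. Ctso was at 1.36 FPKM in Tfeb flox/flox and 1.61 in Tfeb dIEC on day 4, and Ctsw, known from cytotoxic lymphocytes, at 1.03 and 1.22. Both were within 2-fold on days 4 and 11. On day 0 Ctsw was at 0.416 FPKM and a listed 0, under the filter, and Ctso was within 2-fold.

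Among genes that activate, sort or inhibit cathepsins, some were higher and some lower in Tfeb dIEC, in shares near those of all genes. Of 24 listed, 14 passed the filter on day 4, of which 3 were at least 2-fold higher, against 25.6% of all genes, and 4 lower, against 26.1%, with a median log2 difference of 0.22. M6pr, the smaller mannose 6-phosphate receptor that carries cathepsins to the lysosome, was at 3.26 and 27.4 FPKM, after 17.0 and 27.5 on day 0. Igf2r, the larger such receptor, was the reverse, at 12.5 and 0.706 FPKM on day 4 after 0.886 and 1.16 on day 0. The 2 receptors of one route thus stood apart in opposite directions on day 4. Psap, the precursor of the saposins, was at 18.3 and 95.3 FPKM, and Mcfd2, a cargo adaptor of the secretory pathway, at 3.16 and 8.49. The cysteine protease inhibitors Cstb and Cst3 were lower in Tfeb dIEC, at 142 and 28.4 FPKM and at 216 and 73.5 FPKM. With each group divided by its sum, 6 genes of this list were higher and 2 lower, beside 41.6% and 16.1% of all genes on that scale, and Cst3 (log2 difference -0.71) no longer stood 2-fold apart. Once the length trend was subtracted, the median of the list was -0.28, and Cstb (-0.99) and Cst3 (-0.75) stood within 2-fold. On day 0 none of the 14 that passed was higher (13.5% of all genes were), and 2 were lower (16.1% of all genes were), namely Cst3 (130 and 55.8 FPKM) and Gnptg (4.86 and 1.85), a subunit of the enzyme that makes the mannose 6-phosphate tag. Lgmn, which processes several cathepsins to their mature forms, was at 3.71 and 4.87 FPKM on day 4, within 2-fold.

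The other lysosomal peptidases and the partners of Ctsa differed from gene to gene. Of 12 symbols listed, 11 were in the tables and all 11 passed the filter on day 4, 5 of them higher (25.6% of all genes were) and 1 lower (26.1% of all genes were), with a median log2 difference of 0.79. That median was 1.55 with each group divided by its sum and 0.18 with the length trend subtracted, where 4 of the 11 were higher, beside 20.4% of all genes, and 1 lower, beside 20.6%. Scpep1, a serine carboxypeptidase related to Ctsa, was at 0.601 and 10.3 FPKM, Cpq at 7.26 and 25.2, and Glb1, the beta-galactosidase that Ctsa protects, at 2.23 and 8.87. Neu1, the neuraminidase of the complex, was at 7.76 and 14.1 FPKM, within 2-fold. Dpp7, a dipeptidyl peptidase, was lower, at 4.63 and 0.518 FPKM. On day 0 none of the 10 that passed was higher or lower by this measure, beside 13.5% and 16.1% of all genes.

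Lysosomal hydrolases and membrane proteins outside the protease families gave 7 higher of 23 on day 4, beside 25.6% of all genes, and 2 lower, beside 26.1%. Their median log2 difference was 0.74, and 0.30 with the length trend subtracted. Lipa, the acid lipase, was at 0.883 and 18.2 FPKM, and Asah1, the acid ceramidase, at 6.62 and 59.7. Npc1, the cholesterol exporter, was at 4.64 and 0.306 FPKM, and Cd63 at 518 and 223. With each group divided by its sum, 15 of the 23 were higher, beside 41.6% of all genes on that scale, and 1 was lower, beside 16.1%, and Cd63 (log2 difference -0.38) no longer stood 2-fold apart. Lamp1, the abundant membrane protein, was at 17.2 and 17.1 FPKM. On day 0 of this list 5 were higher and 2 lower of 25 (13.5% and 16.1% of all genes were), with Manba and Asah1 the highest by log2 difference, at 3.42 and 1.40.

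**Figure D5:**
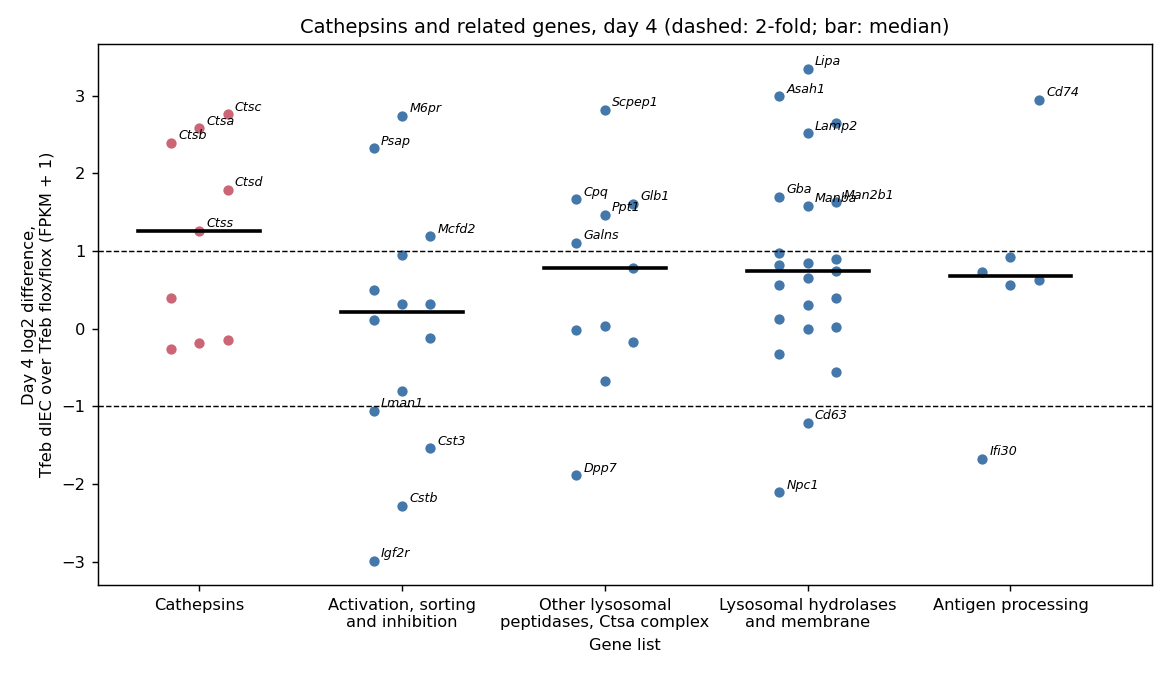
Day 4 log2 ratio (FPKM + 1, Tfeb dIEC over Tfeb flox/flox) of the 9 cathepsins and of related genes at 1 FPKM or more in either genotype, by list; each point is 1 gene, the bars are medians and dashed lines mark 2-fold, past which all but 1 of the genes are named. The cathepsin median is 1.26, and the medians of the other 4 lists drawn lie between 0.22 and 0.79.

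The genes that work with Ctss in antigen presentation were followed because Ctss acts on Cd74, the invariant chain. Cd74 was at 34.7 FPKM in Tfeb flox/flox and 18.8 in Tfeb dIEC on day 0, and at 20.5 and 165 on day 4, the one gene of 6 past the filter that was higher, beside 25.6% of all genes. On day 0, 4 of the 7 listed genes were lower in Tfeb dIEC, beside 16.1% of all genes, among them H2-Aa (9.23 and 1.52 FPKM) and H2-Eb1 (4.34 and 0.390). On day 4 H2-Aa was at 12.1 and 23.7 FPKM, within 2-fold. Ifi30, a thiol reductase of the same compartment, was lower on day 4, at 189 and 58.4 FPKM, though within 2-fold (log2 difference -0.85) when each group was divided by its sum, where 5 of the 6 genes were higher, beside 41.6% of all genes. With the length trend subtracted Ifi30 stayed past 2-fold (-1.02), and 3 of the 6 genes were higher, beside 20.4% of all genes.

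Several cathepsins, Ctss and Ctsc above all, are abundant in immune cells, and in bulk RNA a change in the number of cells of a type and a change in RNA per cell cannot be told apart. Epithelial markers were present in every group: of the 12 the lowest value in any group was 24.5 FPKM, of Cdh1. Epcam was at 1202 FPKM in Tfeb flox/flox and 1803 in Tfeb dIEC on day 4. These values do not measure how many other cells were present. Macrophage and dendritic cell markers added up to 19.0 FPKM in Tfeb flox/flox and 34.0 in Tfeb dIEC on day 4, and to 16.9 and 11.3 on day 0, over 18 entries for 17 symbols. Of these, 5 were listed at 0 in all groups, among them Cd68, Adgre1, Aif1 and C1qc, and Csf1r reached at most 0.316 FPKM. Of the 7 past the filter on day 4, 3 were at least 2-fold higher in Tfeb dIEC, beside 25.6% of all genes, namely Fcer1g (5.91 and 14.6 FPKM), Cd14 (1.46 and 9.11) and C1qb (a listed 0 and 3.26), and 1 was lower, beside 26.1%, namely Tyrobp (4.47 and a listed 0). Within 2-fold on the log2(FPKM + 1) scale were Laptm5 (1.52 and 3.71 FPKM), Lyz2 (2.88 and 1.77) and C1qa (1.96 and 0.663). The plain FPKM of Laptm5 and C1qa stood more than 2-fold apart, in opposite directions. Ptprc was under the filter (0.362 and 0.790). Lymphocyte markers added up to 1.35 and 6.88 FPKM on day 4. Of the 10 found, 7 were under 1 FPKM in all groups and 2 passed the filter on day 4, so these sums rest on low values. On day 0 they added up to 3.58 FPKM in Tfeb dIEC, which was 0.325 times the sum in Tfeb flox/flox. Of the 7 neutrophil markers S100a9, Mpo, Elane, Cxcr2 and Csf3r were listed at 0 in all groups, S100a8 was at 0 and 1.15 FPKM on day 4, and Ly6g was at 1.18 and 4.10 FPKM on day 0 and at 160 and 99.0 on day 4. Their sum on day 4 was 160 FPKM in Tfeb flox/flox and 100.2 in Tfeb dIEC. The stromal markers added up to 4.71 and 2.37 FPKM.

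Markers within the epithelium differed by as much as the cathepsins. On day 4, 5 of the 12 epithelial markers were at least 2-fold higher in Tfeb dIEC and none lower, beside 25.6% and 26.1% of all genes: Krt20 was at 101 and 931 FPKM, Slc26a3 at 33.3 and 271, Vil1 at 30.6 and 224, Cdh1 at 24.5 and 164, and Aqp8 at 25.3 and 69.3. By the same measure 4 of the 6 goblet cell markers were lower and 2 higher, with Tff3 at 28759 and 2166 FPKM and Muc2 at 645 and 1894. Of the 6 Paneth cell and small intestinal markers that passed the filter 3 were lower and 1 higher, with Defa24, a defensin, at 1610 and 3.18 FPKM. With the length trend subtracted, 3 goblet markers were lower and 1 higher, 2 Paneth and small intestinal markers were lower and none higher, and the same 5 epithelial markers stayed higher, where 20.4% of all genes were higher and 20.6% lower. The part of these marker differences in the cathepsin levels was not tested.

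Among the genes past the filter that had a RefSeq promoter window, those with the core had a median day 4 log2 difference of 0.28 (731 genes), against 0.18 without it (5200 genes), both above the median of 0.06 over all 9371 genes. Within the family, Ctsa and Ctsd held the longer palindrome and were higher in Tfeb dIEC, Ctsc and Ctss held no core and were higher as well, Ctsl and Ctsf held a core and were within 2-fold, and Ctsz held none and was within 2-fold.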

How the data were processed

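Colonic epithelial RNA of 12 mice was studied, in 6 groups of genotype and day taken from the sample labels, with 2 animals each. The authors made full-length cDNA by a variation of SmartSeq2, sequenced it paired-end, mapped it to mm10 (TopHat2 2.0.14, Cuffdiff 2.1.1, per the submitters' processing notes) and deposited 3 tables, 1 per day, with 1 pooled FPKM value per genotype for 47632 genes. The tables also hold the authors' own fold changes, test statistics, p-values and q-values, which were not used. Each table compares the genotypes of 1 day, and the study describes no normalization across days. How fragments shared by overlapping genes were assigned is not given in the sources used here.

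Log2 differences were computed as log2(FPKM + 1) of Tfeb dIEC minus Tfeb flox/flox, with Python 3.11.15, numpy 2.4.6 and pandas 2.3.3. A gene was called at 2-fold among genes with at least 1 FPKM in either genotype. The files used hold no values per animal, so no test, error or interval was computed here. The scripts were tested on simulated data. The running median over transcript length (501 genes) used GENCODE M21, and promoters came from RefSeq, GRCm38.p6. Named genes are the 10 cathepsins, Tfeb, and from each related list those 2-fold apart on any day, at most 3 per direction and day, and the markers of each marker list described. Genes within 2-fold, the relatives of Tfeb and overlapping genes were named after their values were seen. Some genes are not reported here by name. The members and lists were chosen with earlier results of these data known. Alternatives tried were other pseudocounts, filters, scalings, a length adjustment and a 4-fold threshold.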

Additional observations from a re-analysis of the deposited data

How the results depend on the processing

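The 5 cathepsins past 2-fold on days 4 and 11 were the same under pseudocounts of 0.1 and 5 FPKM, no filter or one at 10 FPKM, centring on the median of all genes and subtraction of the length trend. At 4-fold, 3 were higher on each of these days (Ctsa, Ctsb and Ctsc), against 7.36% of all genes on day 4 and 7.46% on day 11. With no filter, which adds Ctsf, the cathepsin median was 0.83 on days 4 and 11, instead of 1.26 and 1.30. On day 4, 16.8% of all genes were then higher and 17.1% lower. At a filter of 10 FPKM these shares were 26.8% and 39.9%. With each group divided by its sum, the cathepsin median was 2.09 on day 4 and 2.13 on day 11, Ctsh passed 2-fold as well, and 3900 genes were higher and 1509 lower on day 4, instead of 2401 and 2442. On day 11 these counts were 3947 and 1476, instead of 2444 and 2408. A pseudocount of 5 FPKM left 874 higher and 1272 lower on day 4, and 869 and 1274 on day 11. On day 0 it left 251 and 624, instead of 1352 and 1610, and one of 0.1 FPKM gave 2095 higher. A 4-fold threshold left 690 higher and 966 lower on day 4, 699 and 951 on day 11 and 209 and 335 on day 0. No paired analysis was possible because the tables hold 1 pooled value per genotype and day, and for the same reason no animal could be left out in turn. Depth is unknown, so values near 1 FPKM are the least certain.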
